A study of Ascaris suum with 62 samples.

Results

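The regions described here are the 5 longest stretches of DNA that *Ascaris suum*, the pig roundworm, is marked to discard from scaffolds it keeps in part. They hold 1260 of the 163819 CENP-A peaks that were pooled from 12 stage lists, or 0.769%. A stretch was taken where a scaffold carried peaks of both of the authors' marks, retained and eliminated, and where consecutive peaks marked eliminated spanned at least 400 kb from the first start to the last end. Of 67 eliminated runs in the genome, 44 lay on 40 such mixed scaffolds, and 5 reached that length. Together they span 4.14 Mb, with 29.9% of the 4216 eliminated peaks and 34.0% of all eliminated span. The rule used position and mark only, so it used no level of CENP-A, although the stretches can be seen only where some list had peaks.

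CENP-A is the histone H3 variant that marks chromatin on which kinetochores form. Ascaris chromosomes are holocentric, so CENP-A lies at many sites along their length instead of at one centromere. During early cleavage chromosomes break, some of the DNA is lost from the cells that will form the soma, and the germline keeps the whole genome. A fragment with no kinetochore cannot be pulled to a pole, which is why CENP-A on DNA that is to be lost is of interest.

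CENP-A ChIP-seq, the sequencing of DNA pulled down with the histone, was done on testis (testis1 to testis3), ovary (ovary1 to ovary3), embryos incubated for 0, 46 or 60 hours or for 5 or 7 days, and larvae of the first stage (L1). The 0hr embryos were fertilised eggs from the end of the uterus, and embryos were incubated at 30 °C. No genotype, strain or treatment is labelled for any group, and what the numbers of the gonad lists mean is not labelled. A stage has 1 peak list that gives reads for 2 libraries, and nothing says that these came from separate animals. In what follows 0hr, 46hr and 60hr are the embryos timed in hours, 5day, 7day and L1 are the late lists. Cover means how much of a stretch lies inside peaks, in percent. SDs are between lists of different stages or gonad samples, so p-values measure the spread between stages.

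The lists held 9197 to 21837 peaks, and reads in peaks ran from 1005578 to 14901685 per library. Reads outside peaks were not analysed here, so a list without a peak in a stretch gives no read count for it and no lower limit. The lists also differed in how much they covered in all, from 19.0 Mb in testis3 to 59.7 Mb at 0hr. Retained DNA of the same 5 scaffolds, with 3048 peaks, is therefore given beside the blocks.

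The longest block lay on scaffold 35 of the assembly AgBionano_v1.9, from 89994 to 1634608 (1545 kb, 439 peaks), and made up 69.9% of the scaffold as far as peaks reach. The nearest retained peaks were 39273 bp before it and 38349 bp after it. The block on scaffold 54 ran from 683853 to 1534231 (850 kb, 295 peaks), with retained peaks 1251 bp before and 8901 bp after. On scaffold 10 the block ran from 2674262 to 3514706 (840 kb, 258 peaks), with retained peaks at 4966 bp and 790 bp. These 3 blocks have kept DNA on both sides. Scaffold 35 also carried a shorter eliminated run of 191 kb (70 peaks), and scaffold 54 one of 108343 bp (31 peaks). Neither is part of the blocks.

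The other 2 blocks lay at a scaffold's end. On scaffold 68 the block ran from 818278 to 1315704 (497 kb, 136 peaks), began 3430 bp after a retained peak and reached the last peak of the scaffold. On scaffold 126 it ran from 101655 to 508385 (407 kb, 132 peaks), reached the last peak, and its first peak overlapped a retained peak by 1757 bp. This 407 kb block is the shortest that met the length, and the longest mixed-scaffold run that missed it spanned 385 kb on scaffold 148. Genes and sequence in the blocks were not analysed here.

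CENP-A cover of the 5 blocks together was highest in ovary3 and at 0hr, was lower at 46hr and again at 60hr, and was near 0 in the late lists. The 5 gonad lists other than ovary3 had 2.19% to 8.07%, with a mean of 4.20% ± 2.41 (SD, n = 5). Ovary3 had 19.8%, above each of the other 11 lists. Cover was 16.9% at the start of incubation (0hr), 8.79% at 46hr and 5.90% by 60hr. Late cover was 1.36% in the 5day list, 0.198% in the 7day list and 0.241% in the L1 list. All 9 earlier lists lay above all 3 late ones. The mark eliminated stands for DNA that somatic cells lose, and how much of this DNA each sample held was not measured here.

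Retained DNA of the same scaffolds did not show that course. Its cover was 19.8%, 19.1% and 18.7% over the 3 lists timed in hours and 17.8%, 16.1% and 16.0% in the late lists. As a share of 0hr, the blocks stood at 51.9% at 46hr and 34.9% at 60hr, against 96.3% and 94.5% for the retained DNA beside them. Each time is 1 list, so these shares have no replicate error. From the CENP-A peak lists alone, fewer cells with the DNA and less CENP-A per cell cannot be told apart. The series also has input libraries for each stage, which were not analysed here.

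**Figure D1:**
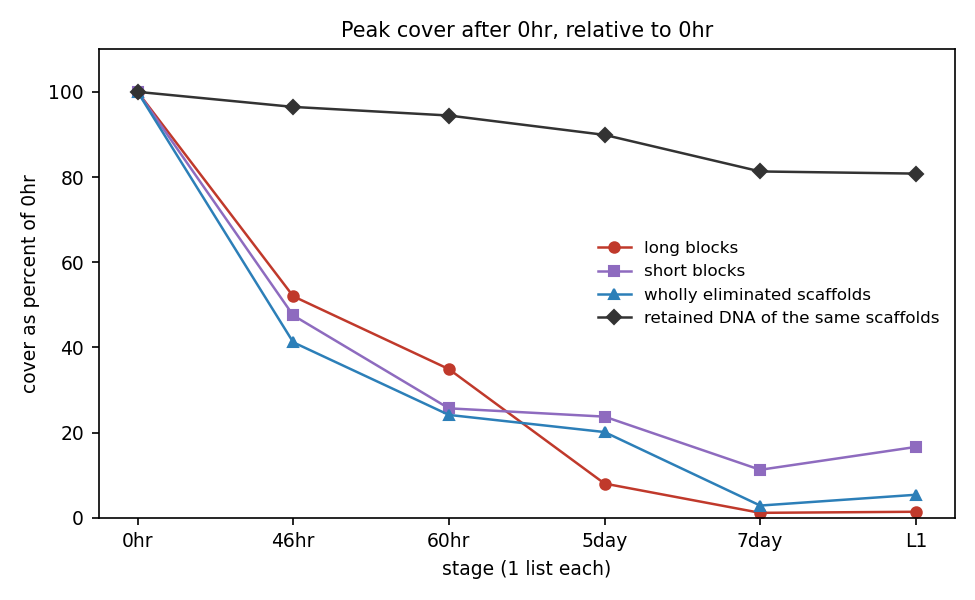
Peak cover at each stage as a percent of the 0hr value (vertical axis) over the embryo and L1 lists (horizontal axis), 1 list per point. The long blocks fall to 34.9% at 60hr and 8.02% at 5day, while retained DNA of the same scaffolds stays at 94.5% and 89.8%.

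Other eliminated DNA fell further over the same hours. Short eliminated runs on mixed scaffolds stood at 25.7% of their 0hr cover at 60hr, and scaffolds marked eliminated along their whole length at 24.1%, with no test of the difference from the long blocks. From 60hr to 5day the order turned: the long blocks went from 34.9% to 8.02% of 0hr, the short runs from 25.7% to 23.8% and the wholly eliminated scaffolds from 24.1% to 20.1%. In ovary3 the long blocks had 117% of their 0hr cover, the short runs 172% and the wholly eliminated scaffolds 146%.

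Across the 5 blocks, the peaks numbered 135, 39 and 46 in the testis lists and 100, 77 and 268 in the ovary lists. There were 296 at 0hr, 159 at 46hr and 105 at 60hr. The late lists held 25, 4 and 6. In each list this was at most 1.52% of its peaks. Ovary3 and 0hr thus supplied the largest numbers, and each of the 9 earlier lists had a peak in all 5 blocks.

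Taken one by one, the blocks shared the high values in ovary3 and at 0hr and differed in how much was left at 60hr. On scaffold 35 cover in gonads ran from 1.47% (testis3) through a median of 3.09% to 16.8% (ovary3). It was 15.3% at 0hr, 8.19% at 46hr and 6.33% at 60hr, with 2.16%, 0.324% and 0.462% left in the late lists. Relative to 0hr the block stood at 53.4% at 46hr and 41.3% at 60hr. Retained DNA of the scaffold stood at 60.9% and 80.2%, so at 46hr they were close. That retained DNA held 19, 4 and 9 peaks at 0hr, 46hr and 60hr, so its shares rest on few peaks.

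The block on scaffold 54 had the most cover at 60hr, also relative to its 0hr cover, though not all at the same sites: 26.3% of its 0hr cover was still covered at 60hr, against 31.5% on scaffold 35. Its gonad cover ran from 1.64% (testis2) through a median of 5.41% to 14.1% (ovary3). It was 18.4% at 0hr, 12.5% at 46hr and 10.4% at 60hr, or 56.5% of the 0hr value. The late lists had 2.30%, 0.182% and 0.332%, each below all 9 earlier lists except that 5day exceeded testis2.

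On scaffold 10 no late list had any peak. Gonad cover there ran from 2.81% (testis3) through a median of 5.25% to 27.1% (ovary3). It was 17.4% at 0hr, 7.04% at 46hr and 3.28% at 60hr, or 18.8% of 0hr. Retained DNA of scaffold 10 held 22.0% to 23.0% over these hours and 16.6% to 19.7% in the late lists. The block thus emptied in lists where the rest of its scaffold had peaks, 104 of them at 5day.

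The block on scaffold 68 had little cover in gonads other than ovary3. Testis lists had 2.48%, 1.36% and 0.370%, and ovary1 and ovary2 had 1.81% and 1.96%. Ovary3 had 21.1%, with no other gonad list above 2.48%. Cover was 19.3% at 0hr, 12.0% at 46hr and 5.67% at 60hr. In the late lists 1 peak was left, at 5day.

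The block on scaffold 126, the shortest, had the least cover at 60hr. Its gonad cover ran from 3.34% (testis2) through a median of 6.26% to 26.3% (ovary3). It was 16.0% at 0hr, 3.08% at 46hr and 0.625% at 60hr, or 3.91% of the 0hr value. Peaks numbered 31, 14 and 2 at these stages. The retained DNA of this scaffold held 5, 3 and 2 peaks then, so its 96.3% at 60hr rests on few peaks.

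**Figure D2:**
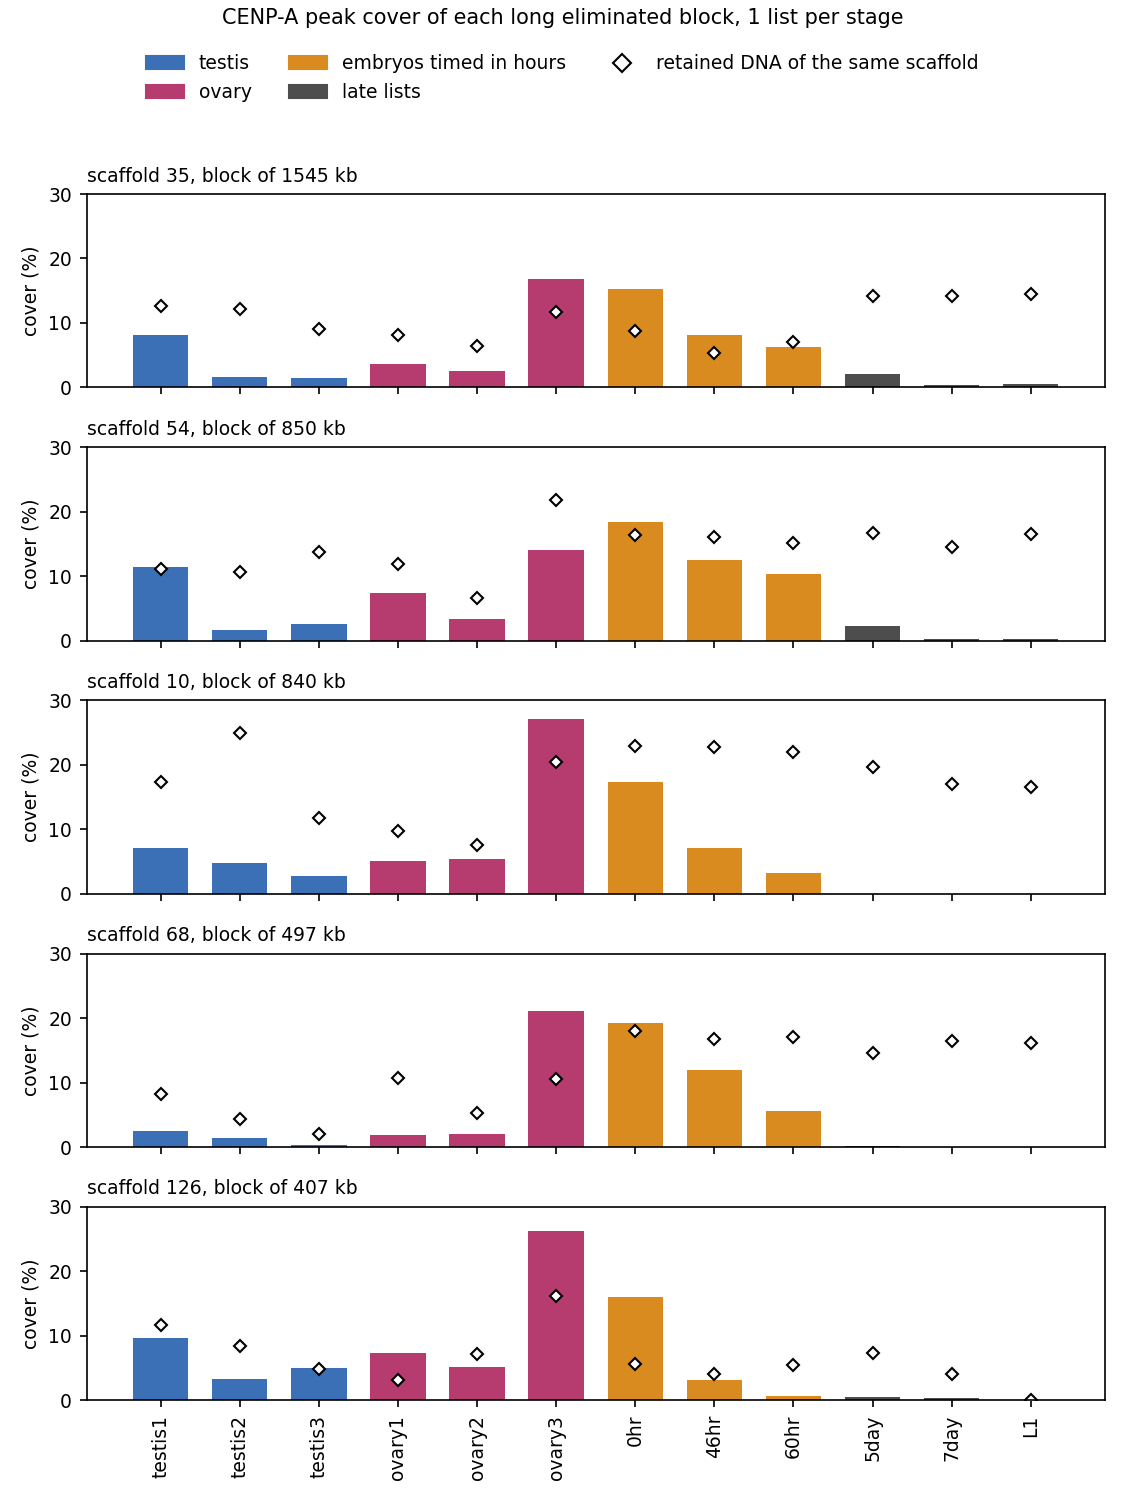
Cover of each block (bars, percent of its span inside peaks, coloured by kind of list) and of the retained DNA of its scaffold (open diamonds) in the 12 lists. Ovary3 and 0hr are the highest bars of every block, and scaffold 10 has no bar in the late lists, where its retained DNA keeps 16.6% to 19.7%.

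Differences between stage classes were tested over the whole genome, with each retained or eliminated run of at least 20 kb as a unit. The blocks were chosen by the mark eliminated, which largely fixes lower late values in advance. Calls against the late lists therefore only describe the blocks. None of the 5 blocks passed for cover in any of the 4 comparisons (limma, Benjamini-Hochberg adjusted p under 0.05 over 532 runs). For gonads above the late lists 4.32% of all runs passed, and the 5 limma adjusted p-values were 0.176 to 0.433. For embryos timed in hours above the late lists 3.38% passed, and scaffold 54 came nearest, with 13.7% against 0.933% and a limma adjusted p of 0.0580. At an unadjusted 0.05 the blocks passing numbered 0 for gonads against late and 3 for hours against late. In the other direction 19.0% of runs passed for gonads below late and 2.26% for hours below late, with none of the blocks.

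For gonads below the embryos timed in hours 27.6% of all runs passed, and for gonads above them 4.14%. On scaffold 54 the means were 6.72% and 13.7% (limma adjusted p = 0.105), and on scaffold 68 they were 4.83% and 12.3% (limma adjusted p = 0.193). Without ovary3 both were called, with differences of -8.39 points (limma adjusted p = 0.0392) and -10.6 points (limma adjusted p = 0.0109). Without testis1 scaffold 54 was called (limma adjusted p = 0.0465). Between testis and ovary 0.188% of all runs passed in each direction, and none of the blocks did, also at an unadjusted 0.05. For edgeR on reads these shares were 1.23% higher and 4.29% lower in testis, and 3.89% higher and 7.16% lower in gonads than in the hours. Both edgeR and DESeq2 called 0 of the 5 blocks in these comparisons, and 0 were under an unadjusted 0.05.

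Counts of reads in peaks were tested with edgeR over 489 runs. For gonads above the late lists 8.59% of all runs passed and 2 of the 5 blocks did, a direction that the mark largely fixes. On scaffold 10 gonad lists held 9083 to 81650 reads with both libraries summed, and no late list had a peak (edgeR adjusted p = 0.000170). The late lists entered that fit as 0 reads, which stand for no called peak and are not measured counts. On scaffold 126 they held 8137 to 45933, against 1062 at 5day, 154 at 7day and no peak in L1 (log2 difference 6.05, edgeR adjusted p = 0.0424). The call on scaffold 126 was lost when any 1 of the gonad lists, 5day or 7day was left out, at edgeR adjusted p-values of 0.0589 to 0.133, and held without L1.

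For embryos timed in hours above the late lists 2.86% of runs passed, and of the 5 blocks scaffold 10 did (edgeR adjusted p = 0.000279). That call again rests on late lists entered as 0 reads for want of a peak. On scaffold 10 the 0hr list held 24248 reads, 46hr 14540 and 60hr 4993. In the other direction 0.409% of runs passed, and 9.41% for gonads below late, with none of the blocks in either. Without 5day, which held most of the late reads on scaffolds 54 and 68, those 2 blocks were called as well. DESeq2 called all 5 blocks in both comparisons with the late lists. It too took lists without a peak as 0 reads. The share of all runs that DESeq2 called is not given here, so that count does not set the blocks apart.

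The share of reads gives the 2 libraries of a list apart. At 0hr the blocks held 2.27% and 3.12% of each library's reads in peaks, at 46hr 0.846% and 0.851%, and at 60hr 0.382% and 0.381%. A single 0hr peak on scaffold 35 (1284718 to 1286384) held 25416 of the 93457 and 36097 of the 132941 block reads. The 0hr shares thus rest in part on that peak. The 2 libraries of 46hr and of 60hr differed by less than 0.01 points, a gap that may be technical only, since nothing says that they are separate animals. At 5day the shares were 0.174% and 0.353%, at 7day 0.0425% and 0.0454%, and in L1 0.0637% and 0.0646%. Exact 95% binomial intervals, which cover counting error only, were 0.0405% to 0.0444% for the first 7day library and 0.0414% to 0.0498% for the second.

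In gonads the shares ran from 0.691% in the first library of testis2 to 2.38% in the first of testis1. The 2 libraries of testis3 gave 1.96% and 0.812%, a wider gap than in any other gonad list. The ovary3 libraries gave 2.20% and 2.27% over the 5 blocks together, below both of testis1, but single blocks differed. With both libraries summed, the block on scaffold 68 held 0.214% of the ovary3 reads in peaks (30838 reads) and 0.0178% to 0.0459% of those of the other gonad lists (1538 to 2925 reads). Ovary3 was also the highest gonad list on scaffolds 10 (0.567%, next 0.308%) and 126 (0.319%, next 0.243%). On scaffold 35 it had 0.889%, below testis1 with 1.23%, and on scaffold 54 it had 0.251%, where 4 gonad lists had more. Few peaks carried much of the reads: before the late lists the 5 strongest peaks of a library held 21.3% to 73.7% of its block reads. Ovary3 and 60hr were at the low end of that range, and testis2 at the high end.

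**Figure D3:**
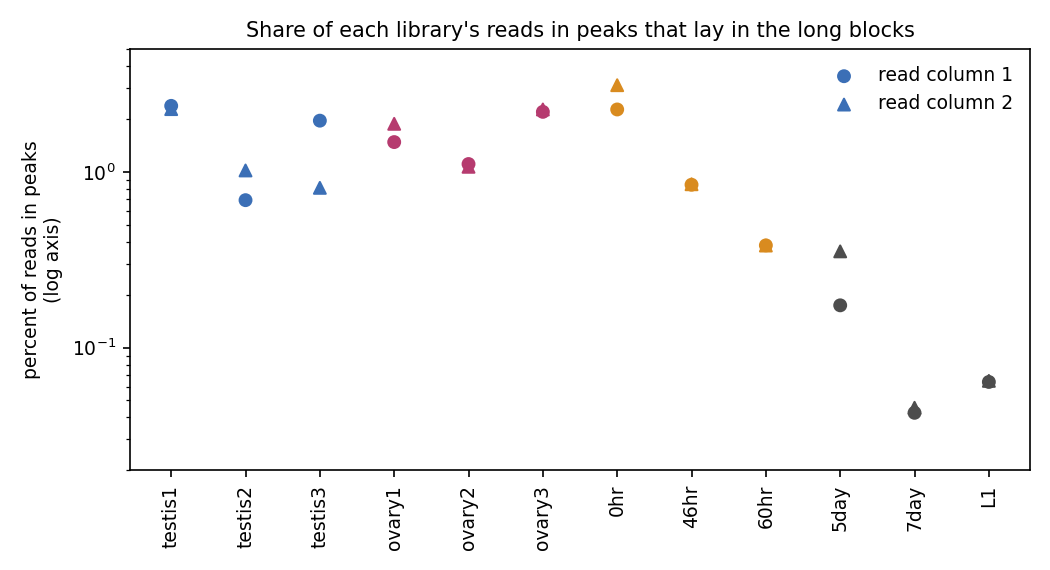
Percent of each library's reads in peaks that fell in the 5 blocks (vertical log axis) for the 12 lists, with circles and triangles for the 2 read columns. The embryo lists step down from 2.27% and 3.12% at 0hr to 0.382% and 0.381% at 60hr, and the late lists lie at 0.353% or lower. A single peak on scaffold 35 held 25416 and 36097 of the block reads at 0hr.

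Within a list, a block can be set against the kept DNA of its own scaffold, which leaves out how much of that list was called. Over the 9 lists before the late ones, cover of the block on scaffold 10 was lower than that of its retained DNA in 8 lists, with a mean difference of -8.85 ± 8.55 points (SD, n = 9). On scaffold 54 it was lower in 7 of 9 (-4.61 ± 4.20 points), and on scaffold 68 in 7 of 9 (-2.99 ± 6.33 points). On scaffold 35 the difference was -1.90 ± 5.76 points, and on scaffold 126 it was 1.12 ± 5.85. No block passed an exact two-sided sign-flip permutation test with adjustment over 31 mixed scaffolds, where 16.1% passed for lower cover and 0% for higher. The adjusted exact p was 0.0692 on scaffold 54, 0.0757 on scaffold 10 and 0.424 to 0.731 on the others. Ovary3 was 1 of the lists that went the other way, and without it scaffold 10 passed, at -10.8 points (adjusted exact p = 0.0404).

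Peaks in the blocks were not called wider or narrower than those beside them, over 6 to 9 lists per block. Mean differences in log2 of the median width were -0.216 to 0.0989, with SDs of 0.362 to 0.782. So few lists cannot show that the widths were equal. None of 10 scaffolds tested, the 5 blocks included, passed for the median width (0% in each direction). Median widths in the block on scaffold 35 ran from 1124 bp in testis3 to 2250 bp in ovary3 over the earlier lists. The widest peak of any block, 17752 bp, was an ovary3 peak on scaffold 10 from 2747039 to 2764791. Ovary3 also held the widest peak on scaffolds 35, 54 and 126, at 9822, 14049 and 15613 bp, and 0hr the widest on scaffold 68, at 13501 bp.

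Read density, the reads per kb of peak, was set against the neighbouring kept DNA in the same way. Of the 10 scaffolds tested 20% passed in each direction, and of the 5 blocks 1 did in each direction, which is the same share. On scaffold 10 it was higher in the block in 9 of 9 lists, by 0.58 ± 0.39 on the log2 scale (adjusted exact p = 0.0391). On scaffold 68 it was lower in 7 of 8 lists, with a difference of -0.23 ± 0.15 (adjusted exact p = 0.0391). Both calls missed the threshold without ovary1, ovary2, 46hr or 60hr (highest adjusted exact p = 0.0625). On scaffold 35 the difference was 0.61 ± 0.90 (adjusted exact p = 0.137) and on scaffold 54 it was 0.45 ± 0.70 (adjusted exact p = 0.140).

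Along the blocks CENP-A was patchy. Peaks of all 12 lists together covered 30.4% (scaffold 68) to 37.3% (scaffold 54) of a block. Of the 211 windows of 20 kb that touch the blocks, 20 had no block peak in any list and 3 had one in all 9 earlier lists. The longest stretch with no peak in any list was 84.5 kb on scaffold 35 (191192 to 275647), and on the other blocks it was 32.1 to 48.1 kb.

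The number of windows with a peak ran from 29 in testis3 to 153 in ovary3, with 86 in testis1, 35 in testis2, 71 in ovary1 and 65 in ovary2. It was 150 at 0hr, 99 at 46hr and 65 at 60hr. Ovary3 had more cover than every other gonad list in 131 of the 211. From 0hr to 60hr, 138 windows had less cover and 14 had more, and 87 of those with a peak at 0hr had none at 60hr. The 14 with more lay on scaffolds 35 (4) and 54 (10). Lower cover was thus spread over the blocks.

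**Figure D4:**
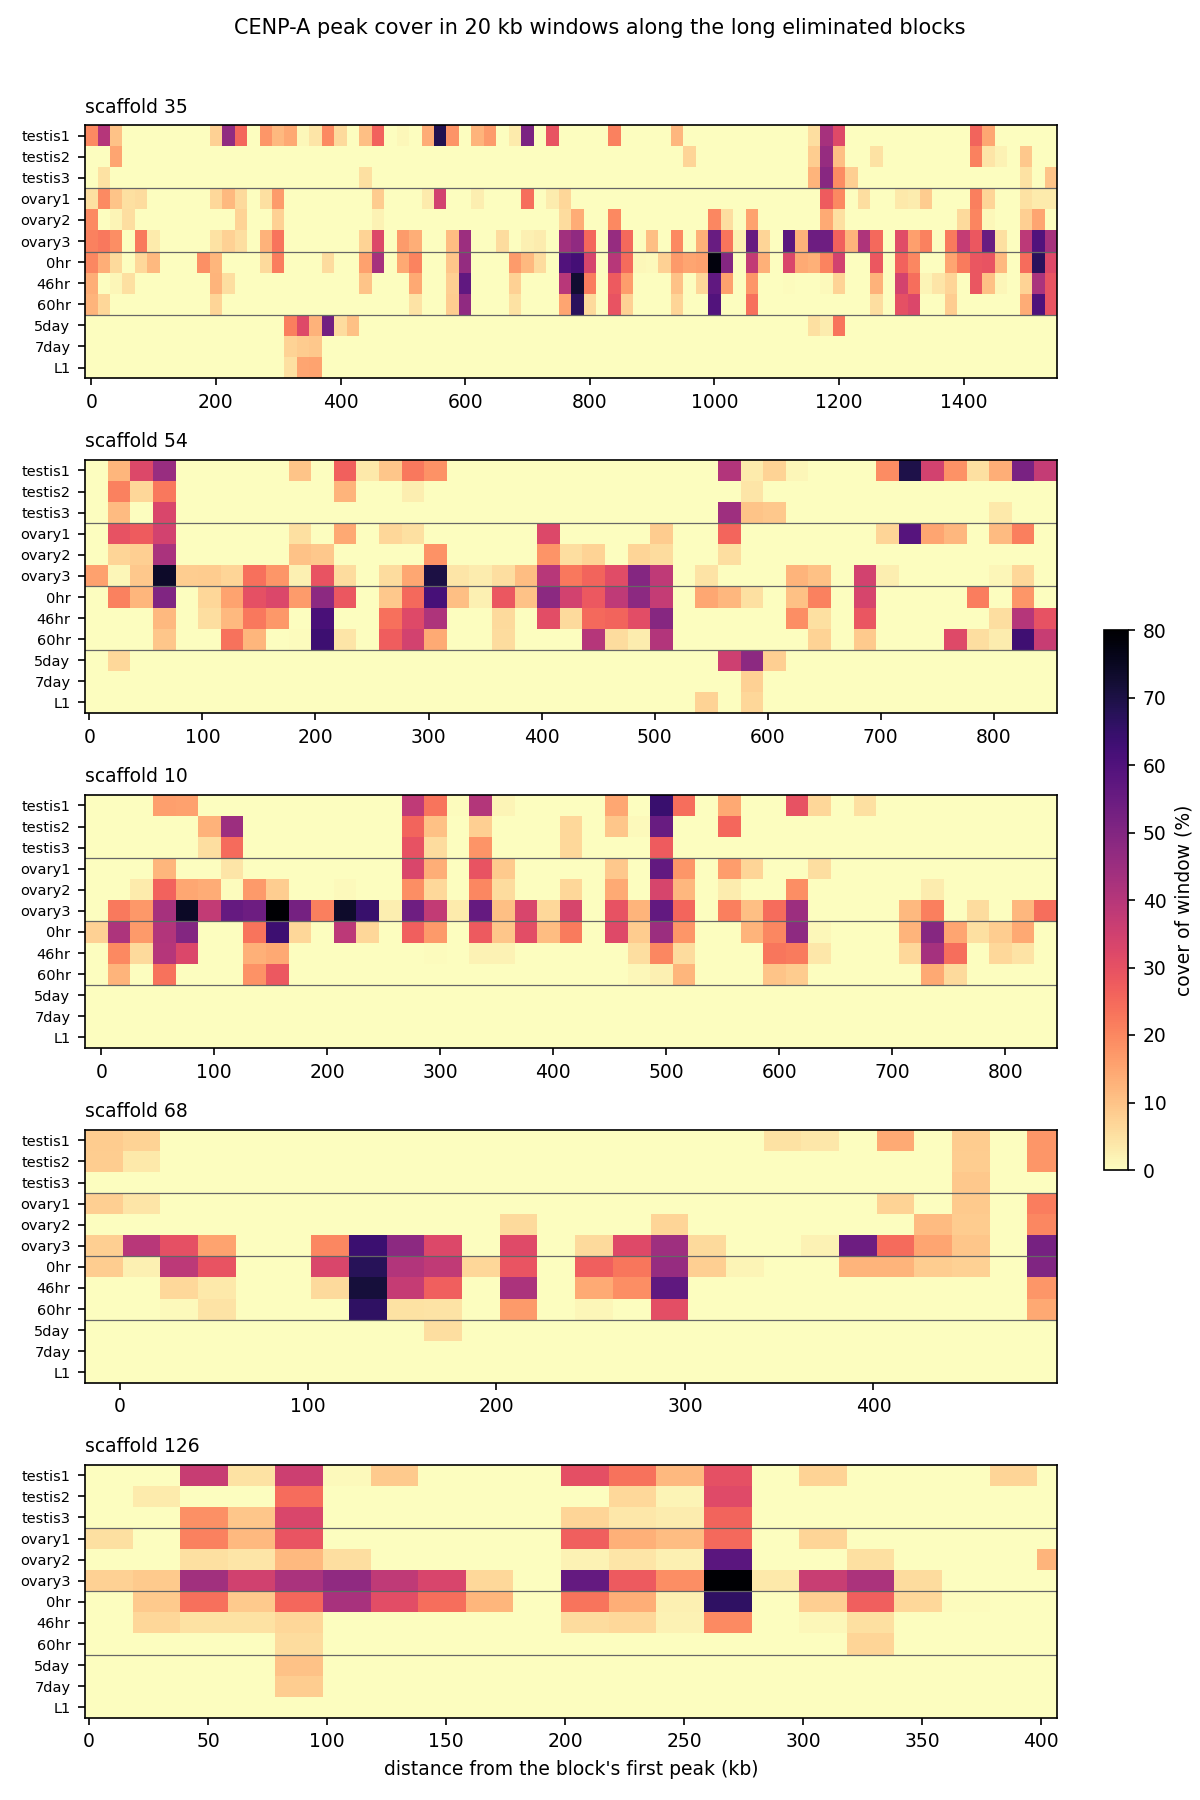
Cover of 20 kb windows (colour, percent) along each block (horizontal axis, kb from the block's first peak) in the 12 lists (rows, with lines between testis, ovary, hours and late). Ovary3 and 0hr have a peak in 153 and 150 of the 211 windows, a few dark columns run from ovary3 to 60hr, and late peaks on scaffolds 35 and 54 lie in short stretches.

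Some windows carried CENP-A in all gonads and had little or none at 60hr. On scaffold 10 the window 3160001 to 3180000 had 64.2%, 55.2% and 27.7% in testis and 56.4%, 33.6% and 56.4% in ovary. It had 45.0% at 0hr, 20.2% at 46hr, 2.30% at 60hr and no late peak. On scaffold 35 the window 1260001 to 1280000 had 14.3% to 54.0% in gonads with a mean of 39.0% ± 15.0 (SD, n = 6). It had 20.7% at 0hr, 0.905% at 46hr and no peak at 60hr. On scaffold 126 the window 360001 to 380000 ranged over 25.2% to 81.8% among gonad lists. Its 0hr value was 66.0%, its 46hr value 19.6%, and no peak was left from 60hr on. Each is the window of its block with the highest gonad mean, so the high gonad values follow from the choice. The windows chosen in the same way on scaffolds 54 and 68 kept more at 60hr. That on scaffold 54 (740001 to 760000) had 22.7% to 74.0% in gonads, 50.5% at 0hr and 9.49% at 60hr. That on scaffold 68 (1300001 to 1315704) had no peak in testis3, 50.6% at 0hr and 14.6% at 60hr.

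Other windows carried CENP-A in ovary3 and in all 3 lists timed in hours, with little or none in the other gonads. On scaffold 68 the window 940001 to 960000 had 63.8% in ovary3, 67.5% at 0hr, 71.3% at 46hr and 66.1% at 60hr. Of the other 5 gonad lists testis1 had 0.150% there and 4 had no peak, and the late lists had none. On scaffold 35 the window 860001 to 880000 had 47.3% in ovary3, 62.4%, 72.5% and 67.1% in the hours and 14.0% in ovary2, with no peak in testis, ovary1 or the late lists. On scaffold 54 the window 880001 to 900000 had 29.6% in ovary3 and 48.1%, 61.5% and 63.6% in the hours, with 9.13% in ovary2. These are the windows of their blocks with the highest cover at 60hr, so their high 60hr values follow from the choice. The windows chosen in the same way on the other 2 blocks had less at 60hr than at 0hr: 28.4% against 63.5% on scaffold 10 (2820001 to 2840000) and 7% against 27.1% on scaffold 126 (420001 to 440000).

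Tests over all 20 kb windows with a mean cover of at least 1% (limma, adjusted over 11988) called a smaller share of the block windows than of all windows between gonads and hours, in both directions. The filter kept 166 windows of the blocks, so the counts are over these and not over all of them. At a block's edge the fitted windows also took in retained peaks, unlike the block-only window values given above. The window 3500001 to 3520000 on scaffold 10 thus had a late mean of 21.2% in the fit and 0% by block peaks alone. For gonads below the embryos timed in hours, 23 block windows passed, or 13.9% of those tested, where 27.1% of all windows did, and 2 passed for gonads above, of 166 tested, where 2.81% of all did. In the 5 with the widest gaps, gonads minus hours was -57.7 to -43.5 points. They include the window on scaffold 68 just described, with 10.7% against 68.3% (limma adjusted p = 0.00254). They also include those on scaffolds 35 and 54, with 10.2% against 67.3% (limma adjusted p = 0.000633) and 6.46% against 57.8% (limma adjusted p = 0.000433).

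The other 2 of the 5 were 1080001 to 1100000 and 1600001 to 1620000 on scaffold 35, with 12.5% against 64.7% and 13.1% against 56.6%. The 2 higher in gonads were 1260001 to 1280000 on scaffold 35, 39.0% against 7.19% (limma adjusted p = 0.0113), and 2940001 to 2960000 on scaffold 10, 33.4% against 9.04% (limma adjusted p = 0.0412). Both fell short when 46hr or 60hr was left out, and that on scaffold 10 also without testis1, testis3, ovary1 or ovary3. With every list scaled to equal covered length, the block windows passing were 10 lower and 6 higher in gonads. Without ovary3, 44 were lower and 1 higher. The shares of all windows under these settings are not given here. Whether the share of block windows stayed the smaller one is therefore not shown.

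For embryos timed in hours above the late lists, 23 block windows passed, also 13.9%, where 9.41% of all windows did. Lower late values are largely fixed by the mark here too, so the larger share is no separate finding. The 5 widest gaps were in the same windows on scaffolds 35, 54 and 68 that had the widest gaps between gonads and hours, with 56.6% to 68.3% in the hours and no late peak (limma adjusted p from 0.00124 to 0.00862). With the 2 windows called in the other direction, described further on, the calls came to 25. They numbered 42 without 60hr, 14 without 5day, 13 without 7day, and 12 without 46hr or without L1. These counts are given without the share over all windows. For gonads above the late lists 7 block windows passed, or 4.22% of those tested. That is near the 4.82% of all windows, so the count does not set the blocks apart. The widest gap was 48.9% ± 14.6 in gonads (SD, n = 6) against no late peak, at 3160001 to 3180000 on scaffold 10 (limma adjusted p = 0.00385). Windows on scaffolds 54 and 126 followed with 42.1% each, and that on scaffold 126, at 360001 to 380000, was lost without testis1, testis2, ovary2, ovary3 or any 1 late list (limma adjusted p from 0.0518 to 0.104). Between testis and ovary no block window passed (limma), where 0.317% and 0.133% of all windows were higher and lower in testis. At an unadjusted 0.05 there were 10 block windows, a count given without the share over all windows.

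The windows were then grouped by how many of the 5 gonad lists other than ovary3 had a peak in them, which uses none of the embryo lists. In the 26 windows with 4 or 5 such lists, cover was 23.3% at 0hr, 5.99% at 46hr and 1.66% at 60hr, or 7.12% of the 0hr value. In the 84 windows with 1 or 2 such lists it was 19.5%, 13.4% and 10.8%, or 55.4% of 0hr. In the 83 windows with none it was 11.9%, 5.41% and 2.19%, or 18.4% of 0hr. The 18 windows with 3 such lists stood at 33.9%. All 24 windows of the first kind with a peak at 0hr had less cover at 60hr.

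In retained DNA of these scaffolds 99 windows with 4 or 5 gonad lists had 30.9% at 0hr and 29.3% at 60hr, or 94.7%, and 69 windows with 1 or 2 had 13.9% and 13.4%, or 96.6%. There 37 windows with 3 such lists stood at 116% of 0hr, and 51 with none at 73.0%. By block, windows with 4 or 5 gonad lists had less cover at 60hr relative to 0hr than the rest on all 5 scaffolds: 9.58% against 45.6% on scaffold 35, 9.89% against 63.1% on scaffold 54 and 1.54% against 23.3% on scaffold 10. The gap was small on scaffold 68 (24.2% against 29.9%, with 2 windows of the first kind) and on scaffold 126 (3.49% against 4.35%). Windows within a block share their lists, and neither difference was tested.

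**Figure D5:**
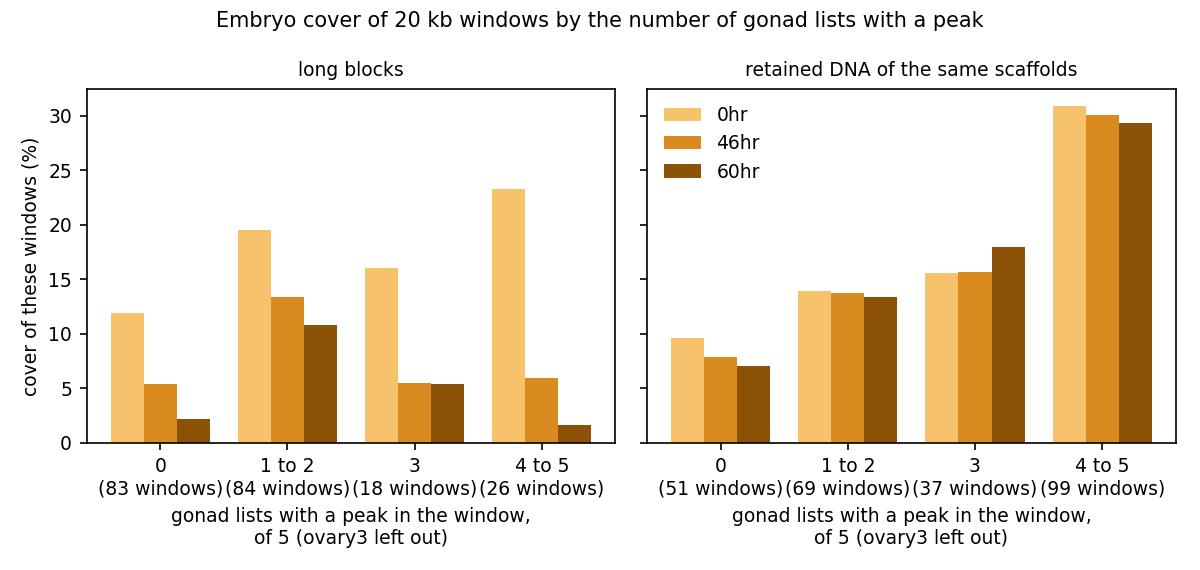
Cover at 0hr, 46hr and 60hr (bars, percent) of 20 kb windows grouped by the number of 5 gonad lists with a peak in them, ovary3 left out, in the long blocks (left) and in retained DNA of the same scaffolds (right). Block windows with 4 or 5 gonad lists drop from 23.3% to 1.66%, and retained ones stay near 30%.

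Positions shared between stages were counted in base pairs. In the blocks ovary3 and 0hr shared 465 kb, which was 56.8% of the ovary3 cover and 66.4% of the 0hr cover. In retained DNA of the same scaffolds they shared 62.1% and 57.3%. Of block cover at 60hr 65.9% lay in 0hr peaks, and of block cover at 0hr 23.0% was still covered at 60hr. The corresponding shares in the retained DNA were 55.0% and 52.0%. By block, 72.4% to 79.9% of the 60hr cover lay in 0hr peaks on 4 scaffolds and 46.6% on scaffold 54.

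After 60hr almost none of those sites were shared. Of block cover at 5day 1.76% lay in 60hr peaks and 24.8% in 0hr peaks, and in retained DNA it was 68.7% and 46.2%. The stretches covered in all 3 lists timed in hours added up to 56.2 kb on scaffold 35, 29.6 kb on scaffold 54, 18.1 kb on scaffold 68, 13.8 kb on scaffold 10 and 1.07 kb on scaffold 126. The single piece on scaffold 126 (195334 to 196406) was a place where late peaks lay as well.

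The 35 late peaks of the blocks were gathered in 16 of the 211 windows, 4 of which had a peak in all 3 late lists. Of these peaks 22 overlapped a peak of an earlier list, and 21 were among the densest 10% of their own list in reads per kb. The share of late peaks elsewhere that overlap an earlier list is not given here. The 22 therefore do not show that earlier sites were reused more than elsewhere. Of the 21 dense peaks, 12 were 5day peaks on scaffold 35. Scaffold 35 held 19 of them and scaffold 54 held 13.

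The largest late stretch was on scaffold 35 from 400001 to 520000. It had 22.6% at 5day with 9 peaks, 4.17% at 7day with 2 and 5.95% in L1 with 4. Testis1 had 7.52% with 5 peaks and 0hr 0.957% with 1, and the other 7 earlier lists had no peak there. The windows 420001 to 440000 and 440001 to 460000 passed as higher in the late lists, with 18.6% and 12.5% against gonad means of 0.177% and 0.689% (limma adjusted p = 0.00643 and 0.00386) and against no peak in the hours (limma adjusted p = 0.0249 and 0.0137). These were the 2 block windows called in that direction in each comparison, where 20.2% of all windows were below the late lists in gonads and 3.74% in the hours. Against the hours the first was lost without 0hr or 46hr and the second without 46hr (limma adjusted p from 0.0541 to 0.0777).

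The peaks there were dense. In L1 the peak from 438248 to 442160 held 707 and 2305 reads in the 2 libraries and was denser than 99.8% of the list. At 7day the peak from 438254 to 441821 held 1575 and 382 reads, denser than 99.5%, and overlapped it. At 5day the peak from 455990 to 458312 held 1032 and 4513 reads, denser than 99.8%.

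On scaffold 54 the late stretch from 1220001 to 1300000 had 22.8% cover in the 5day list, 1.94% in the 7day list and 3.53% in L1. Before that it had 7.99% at 0hr, no peak at 46hr or 60hr, and 1.02% to 15.9% in gonads. Its L1 and 7day peaks were thin, denser than 0.353% to 11.2% of their lists, and 4 of the 10 peaks at 5day in this block were among the densest 10%. On scaffold 126 the window 180001 to 200000 ranged over 11.7% to 42.3% among gonad lists, with 25.5% at 0hr, 6.66% and 5.71% at 46hr and 60hr, and 10.3% and 8.16% at 5day and 7day. It was the only one of the 6 late stretches with a peak in each list up to 7day.

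A stretch of scaffold 35 from 1240001 to 1300000 held the densest peak of any block. At 0hr the peak from 1284718 to 1286384 held 25416 and 36097 reads, and a peak at 5day from 1284753 to 1286385 held 953 and 8323. Cover of the stretch was 6.48% to 45.0% over the gonad lists and 22.8% at 0hr. It was 2.75% at 46hr, with no peak at 60hr, and 10.4% at 5day.

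Cover was also read on both sides of the 8 borders with retained DNA, over 50 kb each way. At 0hr it was 18.4% inside and 18.1% outside, at 60hr 11.2% and 18.6%, and at 5day 0.489% and 29.4%. At 7day it was 0% and 29.8% and in L1 0% and 27.7%. In testis2 and testis3 it was 2.02% and 2.17% inside against 10.9% and 9.37% outside, and in ovary3 it was 19.4% and 18.5%. Averaged over the borders, the kept side thus had more cover in each late list than in each earlier one. Taken singly this held at 4 of the 8 borders (the right borders on scaffolds 35 and 54, the left on scaffold 10, and that on scaffold 68, where late values were 52.7% or higher). It did not at the other 4: on scaffold 126 the kept side had 29.3% in ovary3 and 9.01%, 1.54% and 0% in the late lists. The borders share their lists, and no test was made over them.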

How the data were processed

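Of the 62 samples, the 24 CENP-A libraries of 12 stages were used. Per the submitters' processing notes the tools were Bowtie2 and MACS2. Their versions, settings and filters are not given in the sources used here. Each deposited table gives, per the file headers, a peak's scaffold, start, end, mark and 2 coverage columns. The coverage values are read counts, whole numbers that the authors deposited without normalization. The labels name 1 single-end and 1 paired-end library per stage, and which column holds which is not stated. Whether starts count from 0 or 1 is not stated. All columns of the tables used were matched to a stage.

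Cover was computed over a block's span, from first start to last end. In the limma fits borders lay midway between runs of opposite mark, so means there differ slightly. Runs and 20 kb windows (at least 5 kb at scaffold ends, mean cover at least 1%) were fitted over all scaffolds with limma 3.58.1 (trend, robust) in R 4.3.3, with testis, ovary, hours and late as classes. Reads per run, both libraries summed, were tested with edgeR 4.0.16 (TMM, filterByExpr, quasi-likelihood) and with DESeq2 1.42.0. A list without a peak in a run entered as 0 reads. Block and retained cover, width and density of 1 scaffold were compared by exact sign-flip permutation over lists, with at least 3 peaks a side and 6 lists for width and density. Adjustment was by Benjamini-Hochberg over all units. The limma and edgeR steps were tested on simulated data. Named windows are, per block, those with the highest gonad mean, 0hr, 60hr and late values, and up to 5 called per direction and comparison with the widest gap. The members, lists and tests were chosen with earlier results of these data known, and the grouping of windows by gonad lists after their values were seen.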

Additional observations from a re-analysis of the deposited data

Results flagged for a closer look

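Within the 6 gonad lists, ovary3 lay far above the rest in 5 of 18 sets of gonad values examined by the gap to the nearest list over the range, where about 1 set in 20 is picked out by chance. On scaffold 68 its cover was 21.1%, and the next list had 2.48%. On scaffold 10 it was 27.1% against 7.04%, on scaffold 126 it was 26.3% against 9.71%, and over all 5 blocks it was 19.8% against 8.07%. By reads, the block on scaffold 68 held 0.214% of the ovary3 reads in peaks, and the next list had 0.0459%. The sets share their lists, so the 5 are not independent. Retained DNA of the same scaffolds, by scaffold and summed, gave no such set, nor did the share of reads in the 5 blocks together or in any of the other 4 blocks taken singly. Ovary3 had 43.5 Mb of cover in all, against 19.0 to 47.0 Mb in the other gonad lists.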

How the results depend on the processing

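Alternatives to the settings left 147 of the summary values the same. This meant a count of calls equal or within 1.5 times, or a summed cover that changed by less than its SD. Of the rest, 19 were weaker, 13 were stronger and 3 moved otherwise. Values of positions shared between lists were counted as moved at any size of change. With peaks of at least the median read density, 2 blocks were called by cover in gonads against hours and 2 in hours against late, where 0 were before, and the overlap (shared over joint length) of 46hr with 60hr went from 0.352 to 0.310, of ovary3 with 0hr from 0.441 to 0.277 and of 0hr with 46hr from 0.319 to 0.318. With every list scaled to equal covered length, block windows called went from 25 to 16 for gonads against hours, from 25 to 13 for hours against late, from 9 to 14 for gonads against late and from 0 to 1 for testis against ovary. By reads, 5 blocks were called for gonads against late with the first read column alone or with DESeq2, and 5 for hours against late with DESeq2. For density, 0 blocks were called with gonad lists only and 1 with the second read column only. These counts, and those below with 1 list left out, are given without the share of all units called. They do not set the blocks apart.

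Leaving out 1 list at a time gave 0 to 2 blocks by cover for gonads against hours, 1 to 3 by reads for gonads against late and for hours against late, 19 to 45 windows for gonads against hours, 12 to 42 for hours against late, 0 to 1 for cover within scaffolds and 0 to 3 for density. Some differences that were not called changed sign. Gonads minus hours on scaffold 10 was 3.81 points after scaling and -4.17 to 3.52 with 1 list left out, and on scaffold 126 it was -0.428 to 7.64. On scaffold 35 the log2 reads difference was -0.816 to 1.11, and block minus retained cover on scaffold 126 was -0.0362 to 1.88 points. The cause was not tested. With the gonad number as a replicate block, 0 blocks and 0 windows of the blocks were called between testis and ovary, as without it. Same-numbered lists correlated in their deviations at 0.373, 0.0861 and 0.192, each list best with its own number. For number 2 the margin was narrow: testis2 with ovary3 gave 0.0705 and testis3 with ovary2 gave 0.0749. The remaining unlike pairs gave -0.258 to -0.128. The match of numbers is a hint from the data and not a pairing in the labels.

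Each stage is 1 list, so no stage value has a replicate error, and reads outside peaks limit every late value to what was called.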
